A study of Lepidium sativum with 30 samples.

Results

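ERF020, ORA47 and WRKY75 are transcription factors of plant stress signalling, and 4 contigs of the garden cress (Lepidium sativum) seed transcriptome carry their names. The contigs were picked by their ID from the 48306 contigs of the count table. TC_48708 is matched to Arabidopsis ERF020 (AT1G71520), TC_65678 to ERF018, better known as ORA47 (AT1G74930), and both TC_64935 and TC_42452 are matched to WRKY75 (AT5G13080), so the 4 contigs stand for 3 Arabidopsis genes. The study's own lists supply these names, and TC_48708 is written ERF020 in one list and ERF2 in another. All 4 contigs come from the study's lists of transcripts that are more abundant with Myrigalone A (MyA) at 12 h or 18 h, so their difference from control at those times is what selected them. That difference is given below as a description, without a test.

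ERF020 and ORA47 belong to the large AP2/ERF family, whose members share the AP2 DNA-binding domain and switch target genes in response to wounding, cold, drought, pathogens and hormones. In Arabidopsis both are placed in the DREB branch of that family, and ORA47 is known as a quickly wound-induced activator of genes for jasmonate and abscisic acid synthesis, while the role of ERF020 is less well described. WRKY75 carries the WRKY domain, which binds W-box elements, and is known in Arabidopsis from phosphate starvation, root hair formation, leaf senescence and defence.

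The samples were whole seeds of cress genotype FR14 Keimsprossen of the company Juliwa, in 6 groups of 5 libraries: dry seed (0 h), seed imbibed in control solution for 6 h or 12 h, and seed imbibed with MyA, a phytotoxic dihydrochalcone, for 6 h, 12 h or 18 h. The study's methods give the MyA concentration as 0.5 mM. There was no control at 18 h, so MyA 18 h was set against control 12 h, and imbibition time and treatment cannot be told apart in that comparison. Each library is named here by its group and number, such as MyA 12 h library 5. The study calls its RNA-seq samples biological replicates, and the labels do not say if they are separate seed lots, so each p-value reflects library-to-library spread.

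The total count per library lay between 20218374 and 33609057, with a median of 29320900. MyA 18 h library 5, in which 23.5% of the counts fell on 1954 contigs standing at least 4-fold above the other MyA 18 h libraries, was left out, which leaves 29 libraries. None of the 4 contigs belongs to that set (0 of 4). The same set took between 2.83% and 5.48% of the counts in dry seed libraries, between 0.450% and 2.23% in control libraries, between 1.103% and 2.14% at MyA 6 h, between 1.65% and 7.08% at MyA 12 h and between 1.09% and 3.56% in the 4 MyA 18 h libraries used. The seed label was checked with RAB18, TIP3;1 and LEA18, transcripts of seed maturation. RAB18 had a mean of 551 CPM in dry seed and 51.8 CPM in control 6 h seed, and all 3 were called lower there (3 of 3) and again at 12 h (3 of 3). Of all contigs above 5 CPM, 23.4% and 14.6% were called lower in these intervals. Levels below are in CPM, the count relative to library size, scaled with edgeR's TMM factors, and log2 fold changes come from edgeR's quasi-likelihood test, where "called" means a Benjamini-Hochberg adjusted p under 0.05 and a log2 fold change beyond 1. Contig lengths are not in the table, so levels were not compared between contigs.

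ERF020 (TC_48708) was nearly absent from dry seed, abundant at 6 h, low again in control seed at 12 h, and abundant at 12 h and 18 h with MyA. In dry seed its libraries 1 to 5 held 0.358, 0.166, 0.134, 0.932 and 0.568 CPM, which rest on 8, 3, 2, 15 and 13 counts. In control 6 h seed they held 24.3, 17.0, 11.8, 10.8 and 14.2 CPM. Every control 6 h library stood above every dry seed library. In control 12 h seed ERF020 fell to 1.01, 1.65, 0.772, 1.49 and 1.53 CPM, on 25 to 56 counts. With MyA at 6 h the libraries held 28.6, 17.0, 15.7, 28.9 and 15.8 CPM. Libraries 1 and 4 of MyA 6 h were above all control 6 h libraries, and the other 3 lay within the control range. At MyA 12 h the TC_48708 values were 17.0, 5.24, 13.7, 7.68 and 33.2 CPM, and at MyA 18 h libraries 1 to 4 held 6.06, 5.93, 6.03 and 24.6 CPM. The lowest MyA 12 h and MyA 18 h libraries still stood above the highest control 12 h library, while library 5 at MyA 12 h and library 4 at MyA 18 h were far above the rest of their groups.

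ORA47 (TC_65678) was measured with fewer counts and showed the widest scatter of the 4 contigs in control 6 h seed. Dry seed libraries 1 to 5 held 2.24, 1.44, 1.07, 1.93 and 1.00 CPM, and control 6 h libraries held 11.5, 3.31, 1.19, 0.847 and 4.45 CPM. Library 1 of control 6 h was far above the others, library 4 was below every dry seed library, and the 2 groups overlapped. Control 12 h libraries held 1.104, 0.588, 0.741, 0.835 and 0.458 CPM. MyA 6 h seed held 2.92, 1.56, 1.65, 2.44 and 2.59 CPM, all inside the range of control 6 h. At MyA 12 h TC_65678 stood at 2.83, 2.23, 10.5, 3.03 and 7.90 CPM, and at MyA 18 h at 2.29, 2.37, 2.43 and 5.03 CPM. Libraries 3 and 5 carried the MyA 12 h mean and library 4 the MyA 18 h mean, but in both groups even the lowest library was above all control 12 h libraries. ORA47 reached 5 CPM of unscaled counts in 4 libraries, exactly the number the filter asks for. These were control 6 h library 1, MyA 12 h libraries 3 and 5 and MyA 18 h library 4, so the contig was tested through the groups where it is high.

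The WRKY75 contig TC_64935 was already present in dry seed, and differed in this from ERF020. Its dry seed libraries were close together at 12.9, 10.9, 12.498, 13.1 and 11.2 CPM. In control 6 h seed it stood at 19.7, 12.6, 13.0, 5.08 and 6.88 CPM, a spread that enclosed the dry seed values. In control 12 h seed TC_64935 fell to 2.92, 3.03, 1.95, 3.41 and 2.96 CPM. All 5 control 12 h libraries were below all 5 control 6 h libraries. At MyA 6 h it held 14.4, 8.71, 11.2, 7.50 and 10.9 CPM, within the control 6 h range, and at MyA 12 h 5.23, 3.18, 9.43, 5.54 and 17.2 CPM. Library 2 of MyA 12 h fell among the control 12 h values and the other 4 stood above them. The 4 MyA 18 h libraries held 8.73, 8.24, 10.2 and 20.7 CPM, all above control 12 h, with library 4 again the highest.

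The other WRKY75 contig, TC_42452, never reached 5 CPM and was tested only in the fit over the 42831 contigs that reached 5 counts in 4 or more libraries. It held 0.314, 0.720, 0.735, 0.746 and 0.218 CPM in dry seed, on 5 to 13 counts, and 1.80, 1.49, 1.07, 0.471 and 1.03 CPM in the control 6 h libraries. The control 12 h libraries held 0.269, 0.176, 0.247, 0.835 and 0.214 CPM, on 6 to 23 counts. Library 4 of control 12 h stood above the others and above library 4 of control 6 h. MyA 6 h seed held 1.17, 1.79, 0.750, 0.884 and 0.764 CPM, MyA 12 h seed 1.83, 0.754, 3.13, 0.810 and 3.36 CPM, and MyA 18 h seed 1.30, 1.46, 2.43 and 4.41 CPM. Libraries 2 and 4 of MyA 12 h lay below the highest control 12 h library and the other 3 above it, while at MyA 18 h all 4 libraries were above it. For TC_42452 the highest group median was that of MyA 18 h (1.94 CPM), whereas for TC_64935 it was that of control 6 h (12.6 CPM) with dry seed next (12.498 CPM).

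**Figure D1:**
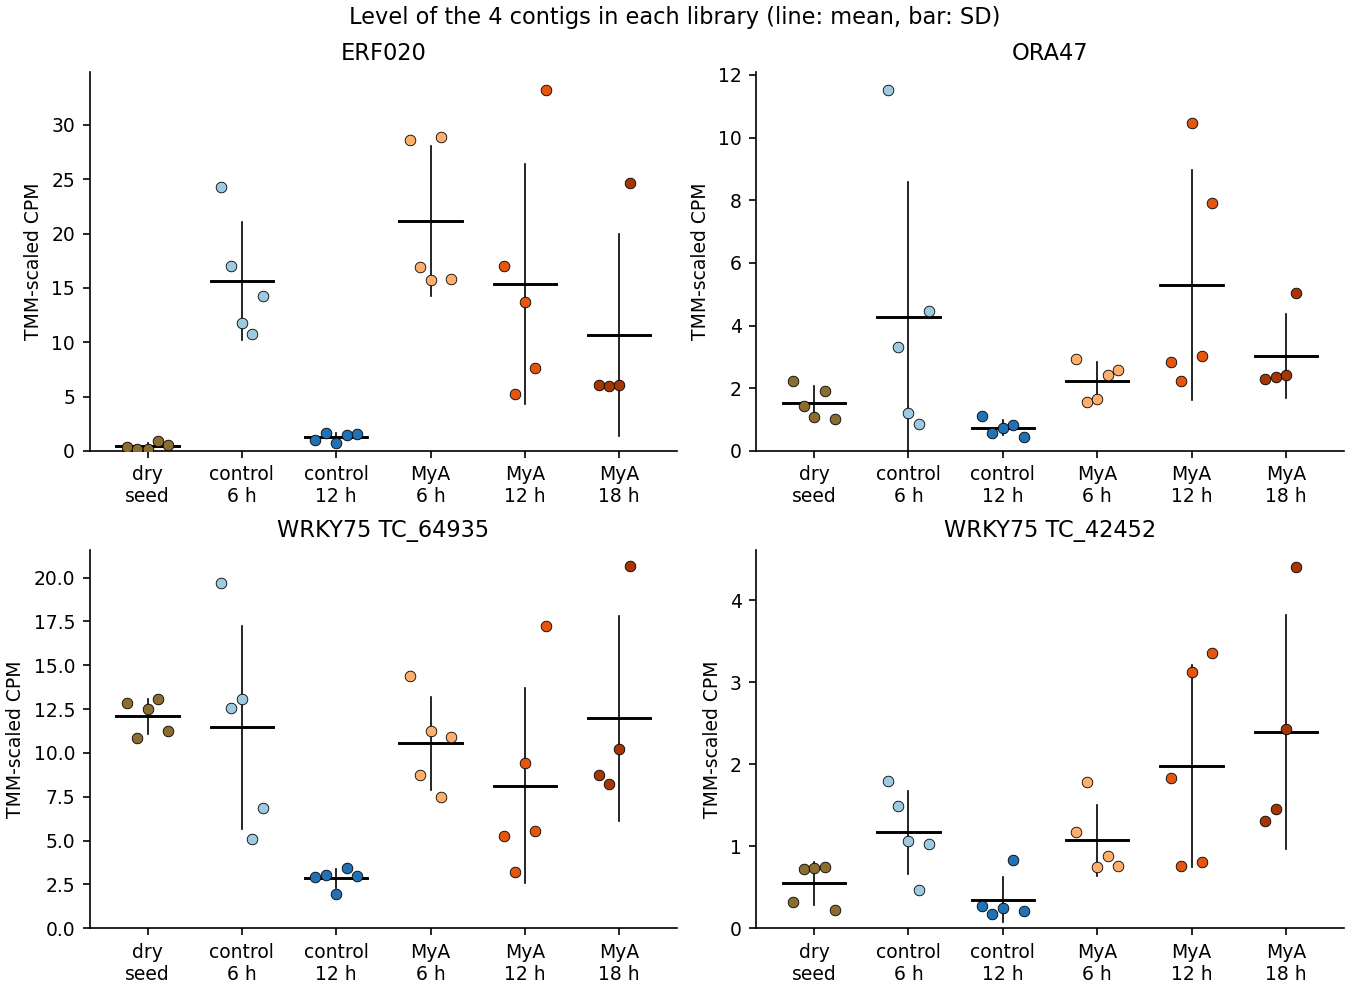
Level of ERF020, ORA47 and the WRKY75 contigs TC_64935 and TC_42452 in each of the 29 libraries, as TMM-scaled CPM on a linear axis from 0, by group, with libraries 1 to 5 from left to right. The horizontal line is the group mean and the vertical bar its SD (drawn down to 0 at the lowest). All 4 contigs have low values in control 12 h seed and wide scatter at MyA 12 h. At MyA 18 h library 4 lies above the other libraries for each of the 4 contigs.

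Ordered by group median, ERF020 went from MyA 6 h (17.0 CPM) over control 6 h (14.2 CPM), MyA 12 h (13.7 CPM), MyA 18 h (6.04 CPM) and control 12 h (1.49 CPM) to dry seed (0.358 CPM). For TC_48708 the only neighbours in this order whose libraries did not overlap were MyA 18 h and control 12 h. For ORA47 (TC_65678) the order was control 6 h, MyA 12 h, MyA 6 h, MyA 18 h, dry seed and control 12 h, with medians from 3.31 to 0.741 CPM. MyA 18 h and dry seed were its only neighbours without overlap. For TC_64935 the order was control 6 h, dry seed, MyA 6 h, MyA 18 h, MyA 12 h and control 12 h, with medians from 12.6 to 2.96 CPM, and every neighbouring pair overlapped. For TC_42452 it was MyA 18 h, MyA 12 h, control 6 h, MyA 6 h, dry seed and control 12 h, from 1.94 to 0.247 CPM, and MyA 6 h and dry seed were its only neighbours without overlap. Such gaps are common: MyA 18 h lay wholly above control 12 h for 8.88% of contigs, and control 6 h wholly above dry seed for 28.7%. The shares for MyA 18 h and MyA 6 h against dry seed were not counted, so these gaps are a description only.

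The first 6 h of imbibition without MyA separated the contigs. ERF020 (TC_48708) rose from 0.432 ± 0.329 to 15.6 ± 5.42 CPM (mean ± SD, n = 5 each), a log2 fold change of 5.08 (SE 0.43, edgeR adjusted p = 8.29e-07). The ratio of the summed counts, 2352 against 41, was 35.6 with an exact 95% interval of 26.2 to 49.8, which covers counting error only. TC_42452 also rose, with a log2 fold change of 1.20 (SE 0.43, edgeR adjusted p = 0.0226 under the 5-count filter) and 4 of 5 control 6 h libraries above all dry seed libraries. That call was lost when control 6 h library 1 was left out (edgeR adjusted p = 0.0554) or library 2 (edgeR adjusted p = 0.0503). ORA47 had a log2 fold change of 1.39 (SE 0.64, edgeR adjusted p = 0.0616) and was not called, with 3 of 5 control 6 h libraries above and 1 below all dry seed libraries. Without control 6 h library 1 its log2 fold change was 0.58 (edgeR adjusted p = 0.279), whereas 6 of 9 other settings with all libraries called it higher, among them DESeq2 (adjusted p = 0.0286) and the 5-count filter (edgeR adjusted p = 0.0343), with adjusted p from 0.00407 to 0.134 over the 9 settings (edgeR and DESeq2). TC_64935 stood at 12.097 ± 0.993 CPM in dry seed and 11.5 ± 5.78 CPM at 6 h, a difference of -0.15 on the log2 scale (SE 0.31, edgeR adjusted p = 0.663). Thus 2 of the 4 contigs were called higher and 0 lower, in an interval where 26.5% of the 22155 contigs above 5 CPM (27% under the 5-count filter) were called higher and 23.4% (26.5% under the 5-count filter) lower. Every control 6 h library was above every dry seed library for 1 of the 4 contigs, ERF020, as for 28.7% of the 42831 contigs under the 5-count filter (28.9% lay below), the set used for all such shares since it holds all 4 contigs.

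Between 6 h and 12 h of imbibition without MyA all 4 contigs fell. ERF020 (TC_48708) changed by -3.48 on the log2 scale (SE 0.27, edgeR adjusted p = 7.69e-07), from 15.6 ± 5.42 to 1.29 ± 0.376 CPM. ORA47 (TC_65678) changed by -2.38 (SE 0.64, edgeR adjusted p = 0.00577), from 4.26 ± 4.32 to 0.745 ± 0.247 CPM, a mean that control 6 h library 1 raised. Without that library ORA47 had a log2 fold change of -1.68 and was still called. TC_64935 changed by -1.87 (SE 0.31, edgeR adjusted p = 0.000239), from 11.5 ± 5.78 to 2.85 ± 0.544 CPM, and TC_42452 by -1.59 (SE 0.44, edgeR adjusted p = 0.00857, 5-count filter), from 1.17 ± 0.505 to 0.348 ± 0.275 CPM. Without control 12 h library 4 the change of TC_42452 was -2.20. Over all contigs 14.6% were called lower in this interval (14.2% under the 5-count filter) and 12.8% higher (12% under the 5-count filter). For ERF020 and TC_64935 every 12 h library was below every 6 h library, as for 23.5% of contigs (15.9% lay above), and for ORA47 and TC_42452 4 of 5 were. The control 12 h libraries are also those against which the contigs were selected as higher with MyA, so low values there were favoured by the selection and the fall is not independent of it.

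At 6 h none of the 4 contigs was called different between MyA and control. ERF020 (TC_48708) stood at 21.2 ± 6.91 CPM with MyA and 15.6 ± 5.42 CPM without, a difference of 0.46 on the log2 scale (SE 0.27, edgeR adjusted p = 0.729). ORA47 (TC_65678) stood at 2.23 ± 0.599 and 4.26 ± 4.32 CPM (-0.92, SE 0.60, edgeR adjusted p = 0.739), and its difference shrank to -0.12 when control 6 h library 1 was left out. The differences were -0.11 for TC_64935 (SE 0.33, edgeR adjusted p = 0.941) and -0.13 for TC_42452 (SE 0.34, edgeR adjusted p = 0.958). In the same comparison 0.0135% of the 22155 contigs were called higher (0.00934% under the 5-count filter) and 0% lower, while 1508 contigs had an unadjusted p under 0.05. DESeq2 called 8 higher and 4 lower, with 0 of the 4 contigs among them. None of the 4 contigs had groups without overlap, a pattern found in 0.413% of contigs with MyA above and 0.46% with MyA below.

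At 12 h all 4 contigs were more abundant with MyA than in control, the difference by which they were selected. ERF020 (TC_48708) had a log2 fold change of 3.59 (SE 0.48), with means of 15.4 ± 11.01 and 1.29 ± 0.376 CPM. ORA47 (TC_65678) had 2.85 (SE 0.48), with means of 5.29 ± 3.68 and 0.745 ± 0.247 CPM. TC_42452 had 2.53 (SE 0.54), with 1.98 ± 1.24 and 0.348 ± 0.275 CPM, and TC_64935 had the smallest value, 1.53 (SE 0.39), with 8.12 ± 5.57 and 2.85 ± 0.544 CPM. The number of MyA 12 h libraries above all control 12 h libraries was 5 of 5 for ERF020 and ORA47, 4 of 5 for TC_64935 and 3 of 5 for TC_42452. Over all contigs 8.58% were called higher in this comparison (10% under the 5-count filter) and 0.00903% lower (0.0304% under the 5-count filter). That background is not stable: the 1902 contigs called higher became 16 without control 12 h library 2 and 16 without library 5, and 26 of 20201 without the 1954 contigs, and under the 5-count filter 4281 became 2185 without control 12 h library 1, 2255 without library 2, 2430 without library 5, 2539 without MyA 12 h library 3, 2852 without its library 4 and 1755 without the 1954 contigs. Most contigs that the study itself found higher in this comparison had no match to Arabidopsis or Brassica. The study says that these may include contamination from other species. How many of the contigs called higher here have such a match was not counted, so their share is not a background of cress transcripts alone. Every MyA library was above every control library for 1.35% of contigs and below for 1.02%. Set against control 6 h instead, the MyA 12 h means stood at 0.983 times the control 6 h mean for ERF020 (TC_48708), 1.24 times for ORA47 (TC_65678), 0.709 times for TC_64935 and 1.69 times for TC_42452. These groups overlapped for each of the 4 contigs, whereas MyA 12 h lay wholly above control 6 h for 14.8% of contigs and wholly below for 22.7%.

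Against the same control 12 h libraries, MyA 18 h seed had log2 fold changes of 3.04 (SE 0.49) for ERF020 (TC_48708), 2.01 (SE 0.34) for ORA47 (TC_65678), 2.06 (SE 0.29) for TC_64935 and 2.84 (SE 0.50) for TC_42452, with n = 4 and n = 5. All 4 MyA 18 h libraries were above all control 12 h libraries for each of the 4 contigs. Over all contigs 2.43% were called higher (2.86% under the 5-count filter) and 0.961% lower (0.873% under the 5-count filter). This background moved too: the 539 contigs called higher became 1971 without MyA 18 h library 4 and 1088 without control 12 h library 4, and the 213 called lower became 115 without MyA 18 h library 1 and 132 without control 12 h library 5. Under the 5-count filter the 1226 called higher became 3379 without MyA 18 h library 4 and 778 without library 1. The share without overlap was 8.88% above and 8.4% below. Without MyA 18 h library 4 the values were 2.19 for ERF020, 1.63 for ORA47, 1.64 for TC_64935 and 2.27 for TC_42452. The ERF020 mean at MyA 18 h with that library was 10.7 ± 9.31 CPM.

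Between 6 h and 12 h with MyA none of the 4 contigs was called lower. From MyA 6 h to MyA 12 h, ORA47 (TC_65678) rose from 2.23 ± 0.599 to 5.29 ± 3.68 CPM, a change of 1.34 on the log2 scale (SE 0.43, edgeR adjusted p = 0.0153), so 1 of the 4 contigs was called. ORA47 passed the 5 CPM filter partly through MyA 12 h libraries 3 and 5, and MyA 12 h values selected it, so this call is no independent evidence of a rise. Under the 5-count filter, which it passes in every library, it had 1.24 (SE 0.42, edgeR adjusted p = 0.0217). Over all contigs 19.1% were called higher (21.4% under the 5-count filter) and 14.7% lower (17.3% under the 5-count filter), and the 4242 called higher became 2566 without the 1954 contigs. The ORA47 call was lost without MyA 12 h library 3 (0.88, edgeR adjusted p = 0.0586) and when 3 reference contigs set the scale (0.87, edgeR adjusted p = 0.0762). ERF020 had -0.38 (SE 0.42, edgeR adjusted p = 0.428), TC_64935 -0.29 (SE 0.38, edgeR adjusted p = 0.511) and TC_42452 0.90 (SE 0.44, edgeR adjusted p = 0.0937). TC_42452 was called higher when MyA 12 h library 2 (1.21, edgeR adjusted p = 0.0223) or library 4 (1.12, edgeR adjusted p = 0.0338) was left out. For ERF020 and TC_64935, 3 of 5 MyA 12 h libraries were below all MyA 6 h libraries and 1 was above them. None of the 4 was free of overlap, which 14% of contigs were with MyA 12 h above and 22.9% with it below. From MyA 12 h to MyA 18 h none of the 4 was called, with log2 fold changes of -0.52 for ERF020 (SE 0.60), -0.81 for ORA47 (SE 0.49), 0.56 for TC_64935 (SE 0.46) and 0.29 for TC_42452 (SE 0.53). There 1.97% of contigs were called higher (1.79% under the 5-count filter) and 0.357% lower (0.177% under the 5-count filter), and 8.08% lay wholly above and 3.16% wholly below. Without MyA 18 h library 4 the changes were -1.34 for ERF020, -1.16 for ORA47, 0.17 for TC_64935 and -0.21 for TC_42452, and without MyA 12 h library 5 that of ERF020 was -0.08, none of them called. The 79 contigs called lower became 182 without MyA 12 h library 5, 40 without MyA 18 h library 1 and 45 without MyA 18 h library 4. The MyA 12 h libraries enter the selecting comparison too, so these values are not independent of it.

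**Figure D2:**
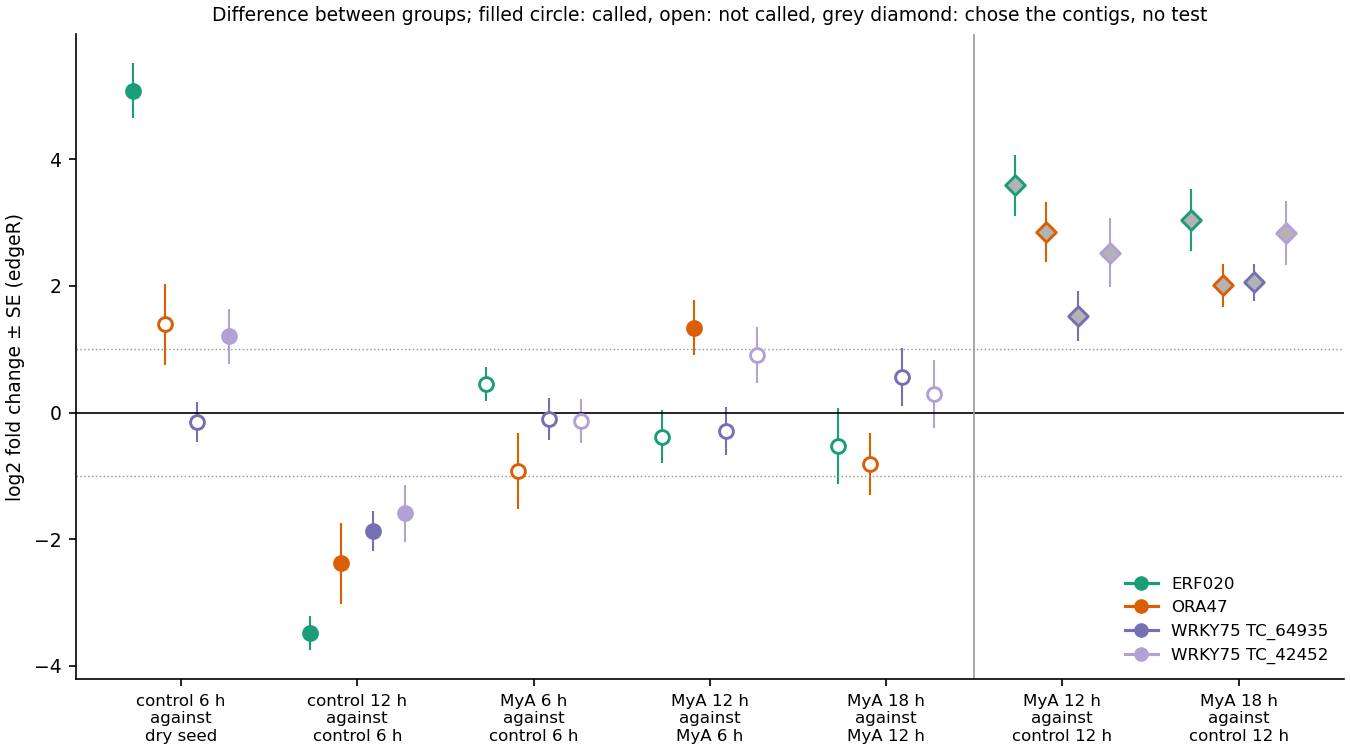
Log2 fold change (edgeR) with a standard error derived from the test statistic for ERF020, ORA47 and the WRKY75 contigs TC_64935 and TC_42452 in 7 comparisons. Filled circles were called, open circles were not, and grey diamonds are the comparisons that selected the contigs and carry no test, while dotted lines mark a log2 change of 1 in either direction. All 4 fall from 6 h to 12 h in control, with log2 changes of -1.59 to -3.48, and none is called between MyA and control at 6 h.

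The scaling moved these intervals by different amounts. The median contig shifted from dry seed to control 6 h by 0.04 under TMM, 0.56 under library size alone and 0.96 when the reference contigs PP2AA2, CAC and Hobbit set the scale, and the split of calls went from 5869 higher and 5195 lower to 8450 and 3442, and to 10812 and 2390. From control 6 h to 12 h the reference contigs gave a median shift of -0.47 with 1274 higher and 6305 lower, against 2845 and 3233 under TMM, and from MyA 6 h to 12 h -0.38 with 3089 and 5915, against 4242 and 3252. At MyA 18 h they gave -0.20 against MyA 12 h with 296 higher and 141 lower (436 and 79 under TMM), and -0.15 against control 12 h with 427 and 374 (539 and 213 under TMM; 471 and 293 under library size). The calls of ERF020 kept their direction under each of these scalings, as did the fall of all 4 contigs in control seed. The change of TC_64935 from dry seed to control 6 h was less stable. It ran from -0.30 to 0.76 over 9 other settings, with adjusted p from 0.0297 to 0.994 (edgeR and DESeq2), and was called in 0 of them.

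The 2 WRKY75 contigs differed in how their counts stood to each other. The summed counts of TC_64935 were 23.7 times those of TC_42452 in dry seed (1137 against 48, per library 15.1 to 51.4) and 9.81 times in control 6 h seed (per library 6.70 to 12.24), so the dry seed and control 6 h libraries did not overlap. The ratio was 8.58 in control 12 h seed (4.09 to 17.2) and 9.90 in MyA 6 h seed (4.87 to 15.0). It was 4.07 at MyA 12 h (2.85 to 6.84) and 4.94 at MyA 18 h (4.20 to 6.70). Both MyA groups overlapped the range of control 12 h, where library 4 with 94 and 23 counts had the lowest ratio. These ratios need no scaling between libraries, no test was run on them, and with 5 to 23 counts of TC_42452 in dry seed and control 12 h libraries the counting error is large. The table does not show whether the contigs come from separate gene copies or from parts of 1 transcript, so reads could be split between them.

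**Figure D3:**
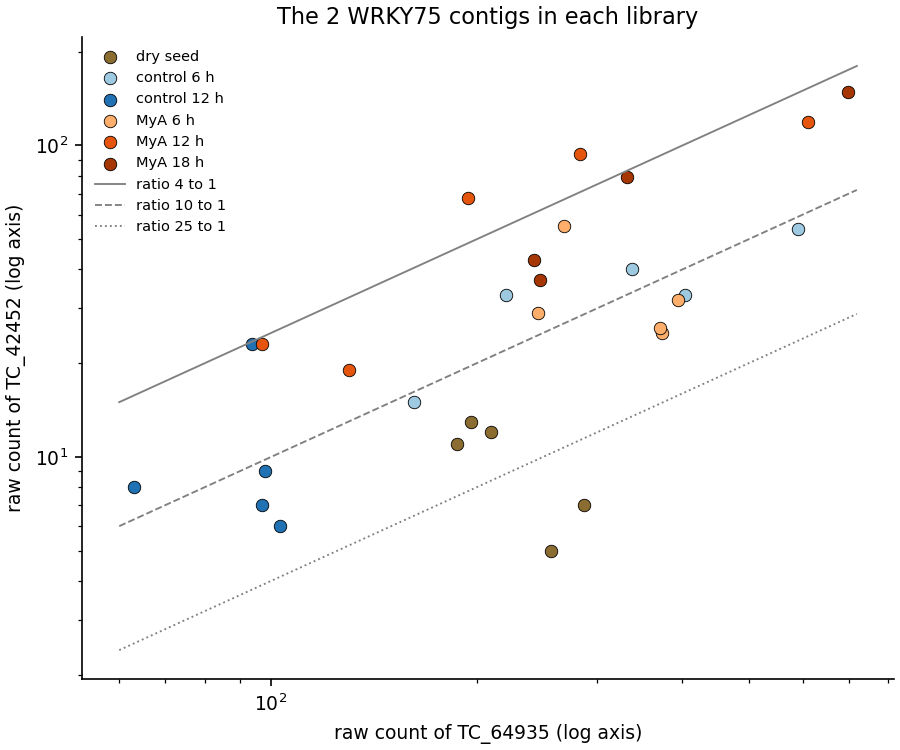
Raw count of TC_42452 against raw count of TC_64935, both matched to WRKY75, in each of the 29 libraries on log axes, coloured by group. Grey lines mark fixed ratios of TC_64935 to TC_42452. The dry seed libraries lie lowest for their TC_64935 count, at ratios of 15.1 to 51.4, and the MyA 12 h and MyA 18 h libraries lie near the top, at 2.85 to 6.84.

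At MyA 12 h the 4 contigs scattered more between libraries than most contigs did. The SD of log2(CPM + 0.5) at MyA 12 h was 0.99 for ERF020, 0.89 for ORA47, 0.87 for TC_64935 and 0.78 for TC_42452, against a median of 0.25 over the 22155 tested contigs. For ERF020 98.3% of contigs with a mean level within 2-fold of its own scattered less in that group, and for TC_42452 89.8% did. In control 6 h seed ORA47 had an SD of 1.27, above that of 97.9% of contigs of similar level. Scatter was not wide in every group. In control 12 h seed 37.6% of contigs of similar level scattered less than ERF020, 39.6% less than ORA47 and 46.3% less than TC_64935, and in control 6 h seed 42.8% scattered less than TC_42452. TC_64935 in dry seed had an SD of 0.12, against a median of 0.20, and 12.8% of contigs of similar level scattered less.

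Within groups the 4 contigs varied together. Control 6 h library 1 was the highest of its group for 4 of 4 contigs and library 4 the lowest for 4 of 4. MyA 18 h library 4 was the highest for 4 of 4, MyA 12 h library 2 the lowest for 4 of 4, and MyA 12 h library 5 the highest for 3 of 4, with ORA47 highest in library 3. In dry seed library 4 was the highest for 3 of 4. In control 12 h and MyA 6 h seed no library was the highest for more than 2 of the 4.

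Over the 29 libraries, the deviations of log2(CPM + 0.5) from the group means correlated for all 6 pairs of contigs, tested by permuting libraries within groups 100000 times (two-sided, adjusted over 6 pairs). ERF020 and TC_64935 had Pearson's r = 0.73 (p = 0.00056, adjusted p = 0.00168) and Spearman's rho = 0.60 (permutation p = 0.00283, adjusted p = 0.00849). The 2 WRKY75 contigs had r = 0.73 (permutation p = 0.00039, adjusted p = 0.00168) and rho = 0.62 (permutation p = 0.00262, adjusted p = 0.00849). ORA47 and TC_64935 had r = 0.67 (permutation p = 0.00575, adjusted p = 0.00575) and rho = 0.53 (permutation p = 0.0246, adjusted p = 0.0246). ERF020 and TC_42452 had r = 0.65 (permutation p = 0.00379, adjusted p = 0.00455) and rho = 0.54 (permutation p = 0.0147, adjusted p = 0.0177). ORA47 and TC_42452 had r = 0.62 (permutation p = 0.00275, adjusted p = 0.00412) and rho = 0.55 (permutation p = 0.0119, adjusted p = 0.0177). ERF020 and ORA47 had the lowest value, r = 0.59 (permutation p = 0.00221, adjusted p = 0.00412) and rho = 0.54 (permutation p = 0.00847, adjusted p = 0.0169). Without the 2 libraries farthest from the median of the contig named first in each pair, r lay between 0.50 and 0.64.

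The size of r rested on few libraries. In the 9 libraries of MyA 12 h and MyA 18 h r was between 0.72 and 0.90 over the 6 pairs, and in the 20 libraries of the other groups between 0.26 and 0.54, where 0 of 6 pairs passed (permutation adjusted p from 0.111 to 0.314). The MyA 12 h and MyA 18 h libraries also selected the contigs, and ORA47 passed the 5 CPM filter partly through them. The correlation tests over all 29 libraries are therefore not independent of the selection. Without control 6 h library 1, MyA 12 h library 5 and MyA 18 h library 4, a setting chosen after the values were seen, r was between 0.40 and 0.56 and 0 of 6 pairs passed. The contigs that take a large share of MyA 18 h library 5 also differed between these libraries: their share of counts was 1.65% in MyA 12 h library 5 and 1.09% in MyA 18 h library 4, where all 4 contigs were above their group means, and 5.85% and 5.71% in MyA 12 h libraries 2 and 4, where all 4 were below them, but 7.08% in MyA 12 h library 3, where ORA47 was highest. With that set taken out of the table r was between 0.59 and 0.73 and 6 of 6 pairs passed. None of the 4 contigs is in the set, so taking it out changes only library totals and scaling factors. It cannot show whether the covariation goes with the share of the set, which was not tested. Over the 9 MyA 12 h and MyA 18 h libraries the deviations had r = -0.73 (ERF020), -0.64 (TC_64935), -0.52 (TC_42452) and -0.24 (ORA47) with the share of that set, and r = 0.78, 0.77, 0.74 and 0.49 in the same order with the library scores on the second principal component of all tested contigs, which carried 33.3% of the variance, with shares and scores also taken relative to their group means. Over all 29 libraries the r with that component lay between 0.09 and 0.35. These values are a description and carry no p. How much of the covariation between the contigs goes with that component was not tested.

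**Figure D4:**
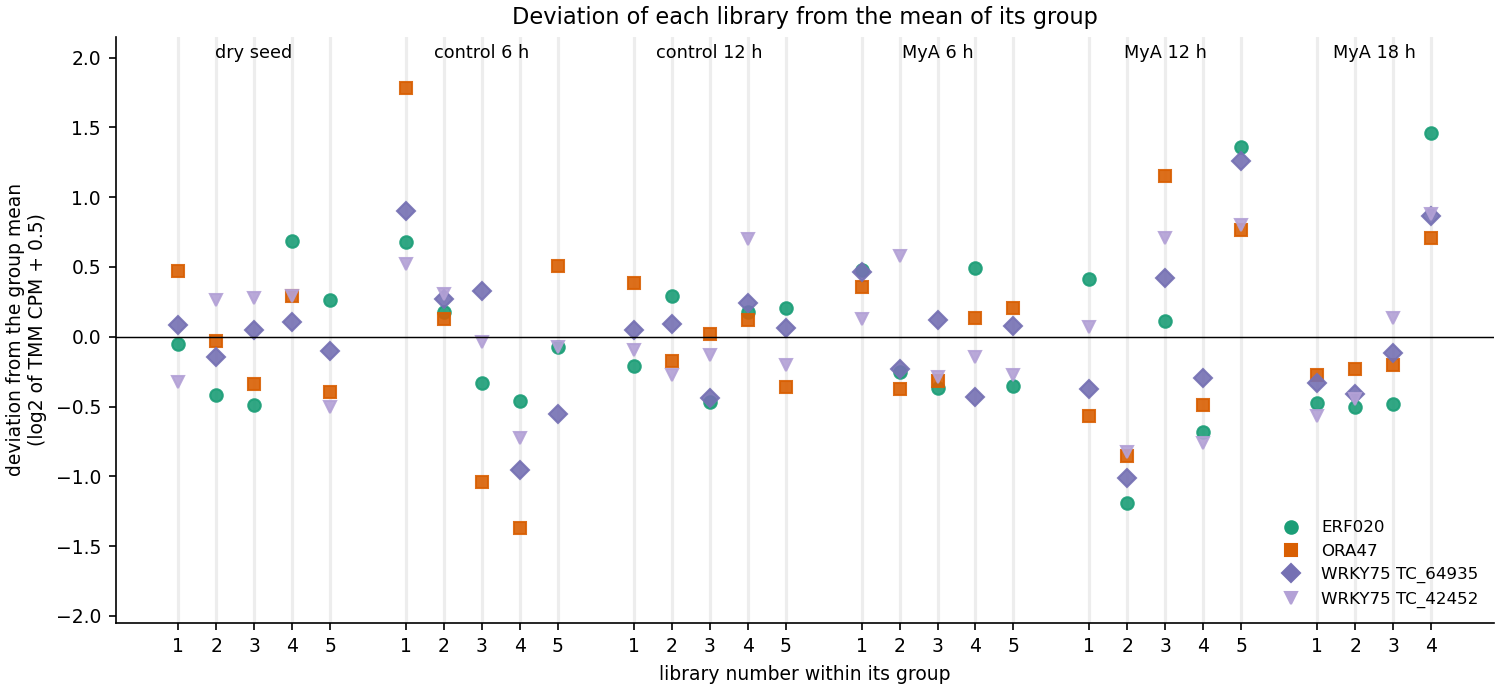
Deviation of each library from the mean of its group, in log2(TMM CPM + 0.5), for ERF020, ORA47, TC_64935 and TC_42452, with library numbers within groups along the axis. Points of 1 library share a vertical line. The 4 contigs lie above 0 together in dry seed library 4, control 6 h libraries 1 and 2 and control 12 h library 4. The same holds for MyA 6 h library 1, MyA 12 h libraries 3 and 5 and MyA 18 h library 4. They lie below 0 together in control 6 h library 4, MyA 12 h libraries 2 and 4 and MyA 18 h libraries 1 and 2.

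As a description of how common such likeness is, 0.208% of the other 22155 contigs correlated with ERF020 in these deviations at least as strongly as TC_64935 did, and 1.36% as strongly as ORA47 did. For TC_64935 the 95th percentile of r over all other contigs was 0.55, higher than for ERF020 (0.43), ORA47 (0.44) and TC_42452 (0.44). The contigs share libraries and depth, so no p is attached to these shares.

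Over the levels of all 29 libraries, group differences included, the contigs most like ERF020 (TC_48708) were UGT73B5 (TC_17628; r = 0.96), a glucosyltransferase, SAT1 (TC_45268; r = 0.96) and OPR1/2 (TC_2709; r = 0.94), a 12-oxophytodienoate reductase. The contig most like ORA47 (TC_65678) was TC_42452 itself (r = 0.77), followed by a tolB-related contig (TC_42901; r = 0.75) and TC_24340 (r = 0.74), which the study's lists do not name. For TC_64935 TC_68207, TC_65091 and TC_60226, none of them named in the lists, came closest (r = 0.91, 0.83 and 0.81), and the closest named contigs were ERF2 (TC_13835; r = 0.80), SAP2 (TC_47382; r = 0.79) and AT1G76600 (TC_55791; r = 0.78). For TC_42452 they were TC_24340 (r = 0.81), DHAR2 (TC_27848; r = 0.80), a dehydroascorbate reductase, and GSTU25 (TC_23016; r = 0.78), a Tau-class glutathione transferase. Seen from ERF020, in contrast, the other 3 ranked 2232, 2915 and 7203 of 22155 by levels (TC_42452, ORA47 and TC_64935), while by deviations they ranked 156, 301 and 46. For TC_64935 and ERF020 r was 0.36 over levels and 0.73 over deviations. These coefficients share the selecting groups and are a description.

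Other stress factors that the study names moved through control imbibition in a similar direction. The lists hold 15 further ERF, WRKY, NAC and C2H2 zinc finger contigs, which the study chose on these libraries, so their direction is no independent evidence. ERF2, NAC032 and NAC102 are each named more than once among the 15, so the counts below are of contigs and not of genes. From dry seed to control 6 h 9 of 15 were called higher and 1 lower, where 26.5% and 23.4% of all contigs were, with a median log2 fold change of 1.77, beside 0.04 over all tested contigs. ERF5 rose by 4.52 (SE 0.49, edgeR adjusted p = 5.55e-06), the NAC factor NAC081 by 3.24, the zinc finger factor ZAT12 by 3.02 and WRKY6, another WRKY factor, by 2.16, while NAC002 was called lower (-1.02). From 6 h to 12 h 12 of 15 were called lower and 0 higher, where 14.6% and 12.8% of all contigs were, with a median of -2.99, beside 0.08 over all tested contigs. ZAT10 changed by -5.20 (SE 0.63, edgeR adjusted p = 1.97e-05), the ERF2 contig TC_13835 by -3.98, a NAC032 contig (TC_57075) by -3.79 and WRKY6 by -2.08. Between MyA and control at 6 h 0 of 15 were called, where 0.0135% of all contigs were called higher and 0% lower. From MyA 6 h to MyA 12 h 9 of 15 were called lower and 2 higher, with a median of -1.43, beside 0.05 over all tested contigs, of which 14.7% were called lower and 19.1% higher.

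Of 11 contigs of stress and defence signalling 9 were called higher at 6 h in control seed and 9 lower at 12 h, beside 26.5% of all contigs called higher and 14.6% called lower in those intervals. LECRKS2 and LYK2 were not called at 6 h, and CML9 and AT4G01895 were not called at 12 h. ATL31 is named more than once among the 11, so these too are counts of contigs. Called in both intervals were, among others, OXI1, a kinase of oxidative burst signalling (6.06 and then -4.22), the calmodulin-like CML37 (5.59 and -3.07) and the phosphatase PP2C5 (4.32 and -3.85). At 6 h 1 of 11 differed between MyA and control, a contig matched to AT4G01895 (log2 fold change 2.12, SE 0.26, edgeR adjusted p = 0.0367). Over all contigs 0.0135% were called higher there and 0% lower. All 3 contigs of the OPR1/2 reductases rose at 6 h and fell at 12 h in control seed, with medians of 1.72 and -2.71. Each of these changes was called, beside the same 26.5% and 14.6% of all contigs. Of 14 contigs of other transcription factor families 7 were called higher between 6 h and 12 h in control seed, beside 12.8% of all contigs, 0 were called lower and 7 were not called, with a median of 1.45. Those called higher include MYBC1 (4.85) and NFYB3 (2.31), while MYB7 (-0.19) and SPL2 (-0.59) had values below 0. The study selected all these lists on the same libraries.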

How the data were processed

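Whole-seed poly(A) RNA was sequenced in 30 libraries. Per the study's methods and the submitters' processing notes, the authors mapped reads with BWA to their own assembled contigs and counted them per contig with HTSeq (versions not given in the sources used here), and the deposited values are raw counts, not normalized. Libraries were grouped by their titles. The 4 contigs and all gene lists were chosen with earlier results of these data known, and the lists are the study's own.

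Counts were tested with edgeR 4.0.16 (limma 3.58.1, R 4.3.3): TMM factors, glmQLFit and glmQLFTest on the libraries of the groups compared. This test reports no SE. Each SE given is the absolute unshrunken log2 fold change divided by the square root of the F statistic of the test. It therefore adds nothing to that statistic, and in the selecting comparisons it is a description only. Tests cover the 22155 contigs that reached 5 CPM (101 to 168 counts) in 4 or more of 29 libraries. TC_42452 and other low contigs come from a fit over 42831 contigs with at least 5 counts in 4 libraries. Levels shown use TMM factors over all 29 libraries, so they can differ slightly from the fitted fold changes. Shares of contigs without overlap use the latter set, a choice made after seeing the data. Log values use a pseudocount of 0.5. Correlations used numpy 2.4.6 and scipy 1.17.1.

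Alternatives were DESeq2 1.42.0, RLE factors, library size, scaling by 3 RT-qPCR reference contigs, other filters, a single fit over all groups, the replicate number as a block, each library left out, the 1954 contigs removed, MyA 18 h library 5 included and, for correlations, a pseudocount of 1. Scripts were tested on simulated data. Named contigs follow a rule: the 4 contigs, the reference contigs, list contigs called at 6 h, up to 4 examples per list with the largest change, and the 3 contigs most like each. Intervals on counts cover counting error only. No sequences are printed, and contig lengths were not used here.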

Additional observations from a re-analysis of the deposited data

Results flagged for a closer look

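Single libraries stood apart from their groups in 4 of 24 contig-by-group sets, compared in CPM and not in log2. All but that of TC_42452 come from 1 library, MyA 18 h library 4. Chance would flag about 1 in 20 independent sets. These sets share libraries and the contigs varied together, so 4 of 24 cannot be set against that rate. At MyA 18 h library 4 was far above the other 3 for ERF020 (24.6 CPM, next 6.06 CPM), for ORA47 (5.03 CPM, next 2.43 CPM) and for TC_64935 (20.7 CPM, next 10.2 CPM). In control 12 h seed library 4 stood apart for TC_42452 (0.835 CPM, next 0.269 CPM).

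MyA 18 h library 5, which enters no comparison, also carried 3 of the contigs above every control 12 h library, with 15.2 CPM of ERF020 (highest control 1.65 CPM), 4.78 CPM of ORA47 (highest control 1.104 CPM) and 9.86 CPM of TC_64935 (highest control 3.41 CPM). The library 5 values use TMM factors over all 30 libraries and the control values those over 29. TC_42452 had 3 counts there. The share of all contigs that stand above control 12 h in this library was not counted, so these values are a description only.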

How the results depend on the processing

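Of 380 results for single contigs under an alternative, 366 kept their side of the threshold, 4 lost a call and 10 gained one. In 0 of them did a called change turn its direction. Changes that were not called could turn, as that of TC_42452 from MyA 12 h to MyA 18 h did (0.29, and -0.21 without MyA 18 h library 4). All 152 fold changes of the selecting comparisons kept their direction, and leaving out 1 library moved ERF020 at MyA 18 h most, from 3.04 to 2.19. Leaving out 1 library gave 1 to 3 contigs called from dry seed to control 6 h (2 with all libraries) and 0 to 2 from MyA 6 h to MyA 12 h (1 with all libraries, and 0 when reference contigs set the scale). The cause of these changes was not tested.

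All 6 pairs correlated with all libraries, and all 6 lost the threshold without the MyA 12 h and 18 h libraries, where fewer libraries enter. There r was 0.54 (ERF020 and ORA47), 0.46 (ERF020 and TC_64935), 0.26 (ERF020 and TC_42452), 0.54 (ORA47 and TC_64935), 0.44 (ORA47 and TC_42452) and 0.50 (TC_64935 and TC_42452). Without control 6 h library 1, MyA 12 h library 5 and MyA 18 h library 4 together, chosen after seeing the data, r in the same order was 0.41, 0.43, 0.40, 0.47, 0.50 and 0.56. With MyA 18 h library 5 included ERF020 and TC_42452 had r = 0.41 (permutation adjusted p = 0.121), where TC_42452 has 3 counts.

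With the replicate number as a block no call of the 4 contigs changed: 2, 4, 0, 1 and 0 were called in the 5 tested comparisons, and ORA47 from MyA 6 h to MyA 12 h had 1.11 (edgeR adjusted p = 0.0382). The block moved all calls at MyA 18 h against control 12 h from 539 higher and 213 lower to 363 and 90. By their labels the libraries share only a number. In no comparison did every same-numbered pair correlate above 0.1. Between MyA and control 4 of 5 pairs did at 6 h (-0.06 to 0.77 over the pairs) and 4 of 5 at 12 h (-0.02 to 0.48). The other comparisons ranged from 0 of 4 (MyA 18 h against control 12 h) to 3 of 5 (control 6 h against dry seed). Whether same-numbered libraries were prepared together was not tested.

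With 2 to 15 counts of ERF020 and 5 to 13 of TC_42452 in dry seed, depth limits the fold changes from dry seed.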
